A study of Rattus norvegicus with 4 samples.

Results

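The transcripts of 10 enzymes of mitochondrial beta-oxidation were followed in rat heart cell cultures given a fish oil fatty acid. The members, taken by gene symbol from the annotation of the array, were the acyl-CoA dehydrogenase genes Acadvl, Acadl, Acadm and Acads, the trifunctional protein genes Hadha and Hadhb, Hadh, and the auxiliary enzyme genes Ech1, Eci2 and Decr1. All 10 were measured, by 12 of the 20500 probes with a value, among 9653 named genes in all. Acadl and Decr1 had 2 probes each and the other genes 1.

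The cells were primary cultures from the ventricles of newborn Wistar rats, kept to confluence in HAM F10 with horse and fetal calf serum at 10% each and fresh medium every 48 h. Supplemented cultures also received eicosapentaenoic acid (EPA) or docosahexaenoic acid (DHA) at 60 µM, and control cultures neither. Cells of each fatty acid were hybridised directly against control cells on 2 Agilent arrays with the dyes exchanged: the supplemented cells were in Cy5 on array 1 and in Cy3 on array 2. Separate RNA extracts are not described for the arrays of a swap, so each swap is treated as 1 RNA sample with no replicate check. Values of a swap are given with array 1 first.

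Beta-oxidation shortens fatty acyl-CoA in the mitochondrial matrix by repeated rounds of dehydrogenation, hydration, a further dehydrogenation and thiolytic cleavage, and it is the main source of energy of the adult heart. The acyl-CoA dehydrogenases begin each round and differ in the chain length they prefer. The trifunctional protein, built of Hadha and Hadhb, carries out the later steps on long chains at the inner membrane, and Hadh takes over for shorter chains. Polyunsaturated chains such as EPA and DHA also need auxiliary enzymes that move or reduce their double bonds. Several genes of the pathway are known targets of the fatty acid receptor PPARα.

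Hadha and Hadhb lie head to head, and their promoter windows in RefSeq (build GRCr8, 250 bases before to 50 after the start) overlap by 200 bases on chromosome 6. The Hadha window is shown because the pair of subunit genes shares most of it, with the bases that also belong to the Hadhb window in capitals. The Acadvl window on chromosome 10 is shown because it alone among the 7 members with a window held a near match to the direct repeat of AGGTCA with 1 base between the copies (DR1), the form of site that PPARα with its partner RXR binds. Capitals in it mark AGGTCA.
Hadha, GRCr8 chr6:31907551-31907850, plus strand: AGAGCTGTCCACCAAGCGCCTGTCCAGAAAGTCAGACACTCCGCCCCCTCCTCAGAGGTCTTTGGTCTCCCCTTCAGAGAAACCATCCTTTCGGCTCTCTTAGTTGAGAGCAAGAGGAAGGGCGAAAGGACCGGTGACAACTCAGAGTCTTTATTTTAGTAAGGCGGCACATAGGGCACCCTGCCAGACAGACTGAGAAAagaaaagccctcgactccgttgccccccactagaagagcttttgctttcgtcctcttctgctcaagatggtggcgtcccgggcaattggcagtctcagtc
Acadvl, GRCr8 chr10:55236656-55236955, minus strand: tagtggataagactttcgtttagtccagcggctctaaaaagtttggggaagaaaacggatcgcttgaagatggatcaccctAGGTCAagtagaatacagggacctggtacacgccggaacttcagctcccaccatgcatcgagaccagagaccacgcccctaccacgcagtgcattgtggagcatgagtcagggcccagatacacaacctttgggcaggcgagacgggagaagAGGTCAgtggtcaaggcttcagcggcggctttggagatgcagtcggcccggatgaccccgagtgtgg

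Searched on both strands, the core AGGTCA was found in 3 of the 7 windows (Acadvl, Hadhb and Eci2), against 16.2% of all 33469 promoter windows. The exact DR1 repeat (AGGTCA, any base, AGGTCA), which contains the core, was in 0 of 7 and in 0.0538% of all. With up to 2 mismatches it was in 1 of 7, as AGGTCAGTGGTCA 17 bases before the Acadvl start, and in 3.77% of all. TNAAGGTCA, the site of the estrogen-related receptors, was in 0 of 7 and in 1.20% of all. These matches are descriptions of the letters only. Acadl, Ech1 and Decr1 had no window in the table.

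Values are given as deposited after each array's median was set to 0, and are read as log2 ratios. The log base is not stated, and in base 10 all folds would be larger. The direction of the ratio is not stated either. Fatty acid over control is used as the working reading and is not settled. All 4 sample titles name the supplemented cells. Of 18 measured genes of the carnitine shuttle and of other PPAR targets, 8 lay above 0 on all 4 arrays, against 7% of genes, and 0 below, against 7.59%. These lists and the members were chosen with earlier results of these data known, and the members helped to choose the reading, so neither is independent evidence of it. Other counts go the other way. At 1.3-fold 8 probes were above and 5 below 0 on all 4 arrays, while 54 were below on both arrays 1 and above on both arrays 2. Of these 54, 30 had a value shared by many probes and 15 lay in the first columns of the array, described below. Above on both arrays 1 and below on both arrays 2 were 2 probes. In the working reading the effect of a fatty acid is the mean of its arrays, given ± the distance of either array from that mean. If the values were Cy5 over Cy3, the effect would be array 1 minus array 2, divided by 2, called the dye-following value below.

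Pearson's r across all probes, a description of arrays that may share control RNA, was -0.11 between the EPA arrays, -0.03 between the DHA arrays, 0.65 between arrays 2 and 0.06 between arrays 1 (0.38 outside the first columns). These first columns, 66 in a grid inferred from the feature numbers, held 6278 probes, of which 17.1% were under -1 on DHA array 1, against 0.0563% of the 14222 elsewhere. Both Acadl probes, the Acads probe and the Hadh probe lie there, and the probes of the other 7 members do not. The 43 probes that share a value within 0.0002 on an array 1 had medians of -0.77 and 1.35 in the EPA swap and of -0.43 and 1.31 in the DHA swap. No member probe is among them.

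Ech1, an auxiliary enzyme of unsaturated chains, had the largest swap mean with both fatty acids in the working reading. This dienoyl-CoA isomerase stood at 0.51 and 1.03 in the EPA swap and at 0.52 and 1.28 in the DHA swap. It was above 0 on every array, and lower on both arrays 1 than on both arrays 2. The mean was 0.77 ± 0.26 with EPA (1.70-fold) and 0.90 ± 0.38 with DHA (1.87-fold), higher than that of any other member with either fatty acid. The dye-following value was -0.26 for EPA and -0.38 for DHA, so in the Cy5 over Cy3 reading Ech1 would be lower with both, and Acadl further below 0 than Ech1, at -0.40 and -0.45.

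Decr1 encodes the dienoyl-CoA reductase, which removes a double bond with NADPH. Averaged over its probes it was at 0.19 and 0.43 in the EPA swap and at 0.33 and 0.77 in the DHA swap, above 0 on all 4. Its probes lay close together with EPA, at 0.12 and 0.25 on array 1 and 0.47 and 0.40 on array 2. They differed on DHA array 1, at 0.08 and 0.58, and less on DHA array 2, at 0.91 and 0.62. The gene mean was 0.31 ± 0.12 with EPA and 0.55 ± 0.22 with DHA.

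Eci2, an enoyl-CoA isomerase that moves a double bond to where beta-oxidation can continue, differed most between the fatty acids in swap means among members outside the first columns. It was at -0.02 and 0.20 in the EPA swap and at 0.63 and 0.39 in the DHA swap. The means were 0.09 ± 0.11 with EPA and 0.51 ± 0.12 with DHA. In the working reading with DHA the auxiliary enzymes held the first 3 places among the members, with a median of 0.55, against 0.33 for the trifunctional protein genes with Hadh and 0.19 for the dehydrogenases. These places depend on averaging the Acadl probes, both in the first columns. The DHA mean was 0.64 for the probe in column 63, above Decr1 and Eci2, and 0.095 for that in column 31. The dehydrogenase median also holds Acads, at -0.74 with its probe in the first columns. With EPA the order was another: Ech1 was followed by Acadl and Hadha, and Eci2 came next to last. The order does not carry over to the Cy5 over Cy3 reading: the dye-following medians for DHA were -0.22 for the auxiliary enzymes, -0.19 for the trifunctional protein genes with Hadh and -0.28 for the dehydrogenases, with Eci2 at 0.12.

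**Figure D1:**
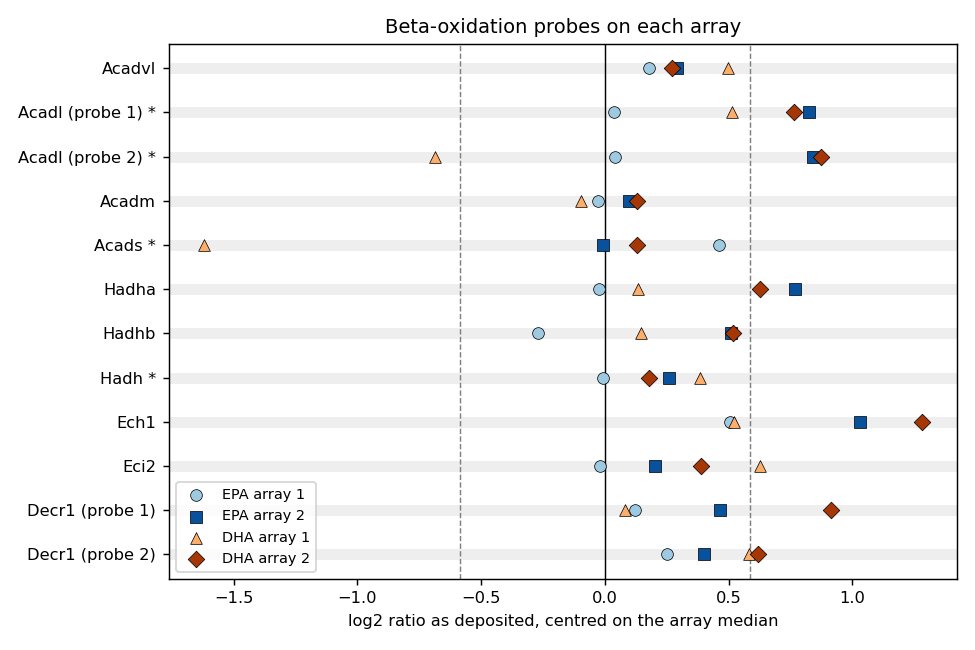
Log2 ratio of each of the 12 probes (rows) on the 4 arrays, as deposited and centred on the array median. An asterisk marks probes in the first 66 columns, and dashed lines mark 1.5-fold. Ech1 lies above 0 on all 4 arrays, from 0.51 to 1.28, while Acads reaches -1.62 on DHA array 1.

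Among the acyl-CoA dehydrogenases, Acadvl, which starts the oxidation of very long chains at the inner membrane, was above 0 on all 4 arrays. Its values were 0.18 and 0.29 with EPA and 0.50 and 0.27 with DHA, with means of 0.24 ± 0.06 and 0.38 ± 0.11. The arrays of its swap were closer to each other with EPA than those of any other member.

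Acadl, the long-chain dehydrogenase, was near 0 on EPA array 1 and high on both arrays 2. Both probes gave 0.04 on EPA array 1. On arrays 2 they gave 0.82 and 0.84 with EPA, and 0.77 and 0.88 with DHA. On DHA array 1 they parted, at 0.52 in column 63 and -0.68 in column 31. Within 2 columns of the latter 18.4% of probes were under -1, and within 2 columns of the former 0%. The gene mean was 0.44 ± 0.40 with EPA and 0.37 ± 0.45 with DHA, so the arrays of a swap lay about as far from their mean as the mean from 0.

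The medium-chain gene Acadm, the dehydrogenase whose inherited deficiency is the best known defect of the pathway, had the swap means nearest to 0. Its dye-following values were -0.064 for EPA and -0.11 for DHA, and there Acadvl was nearer to 0 for EPA, at -0.058, and Hadh for DHA, at 0.10. Acadm was at -0.03 and 0.10 in the EPA swap and at -0.10 and 0.13 in the DHA swap, with means of 0.03 ± 0.06 and 0.02 ± 0.11. The short-chain gene Acads was at 0.46 and -0.0067 with EPA and at -1.62 and 0.13 with DHA. Its probe lies in column 36, where 19.7% of the probes within 2 columns were under -1, and removing a local median left its DHA array 1 value at -1.46. Its DHA mean of -0.74 ± 0.87 rests on array 1, the arrays being on opposite sides of 0.

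Hadha and Hadhb, the α and β subunits of the trifunctional protein, were both highest on arrays 2. Hadha was at -0.02 and 0.77 in the EPA swap and at 0.13 and 0.63 in the DHA swap. Hadhb was at -0.27 and 0.51 in the EPA swap and at 0.15 and 0.52 in the DHA swap. Both were higher on array 2 than on array 1 with each fatty acid, and with EPA both lay below 0 on array 1. The means of Hadha were 0.37 ± 0.40 with EPA and 0.38 ± 0.25 with DHA, and those of Hadhb 0.12 ± 0.39 and 0.33 ± 0.19.

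By Euclidean distance over the 4 arrays Hadhb was 14th of 9652 genes from Hadha, and Hadha 86th from Hadhb. This pair was looked at after its values were seen. The 3 nearest genes of Hadha were Gad1 and Trim28, each with a probe in the first columns, and Vipr2. Those of Hadhb were Retnla, Samhd1 and Rpn1. Hadh, the short-chain hydroxyacyl-CoA dehydrogenase, was at -0.0076 and 0.26 with EPA and at 0.38 and 0.18 with DHA, with means of 0.13 ± 0.13 and 0.28 ± 0.10.

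**Figure D2:**
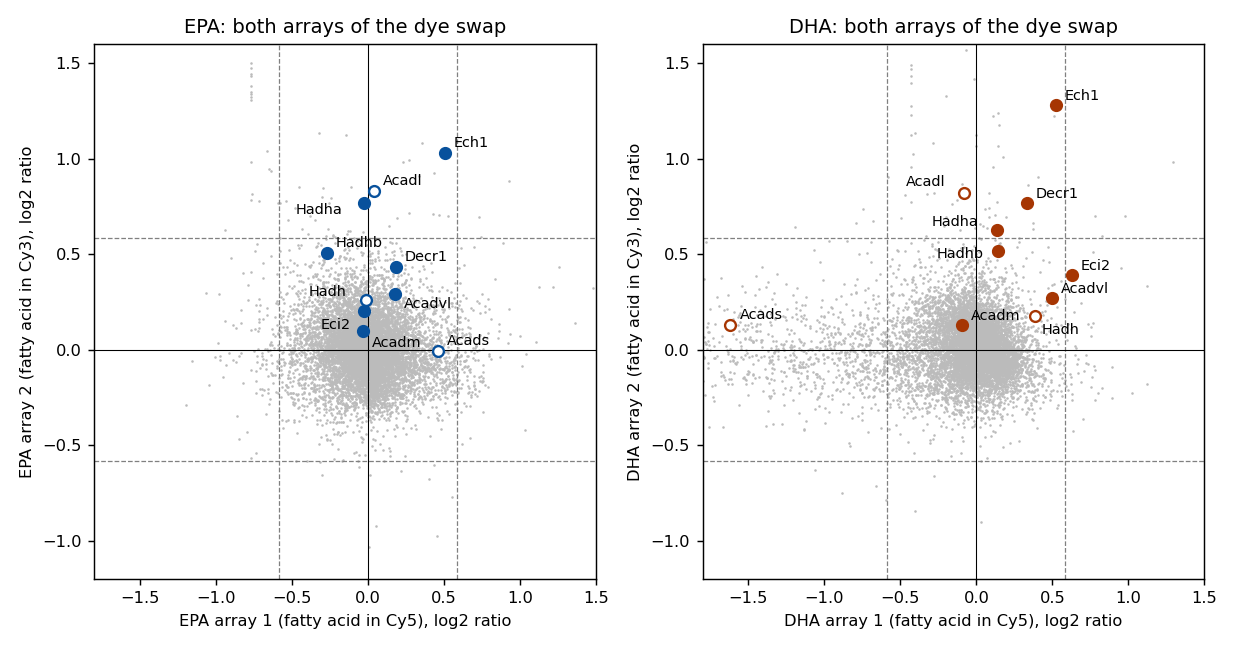
Array 2 (y) against array 1 (x), log2 ratio, for EPA (left) and DHA (right). Grey points are all named genes (11 with EPA and 176 with DHA lie outside the axes), large points the members, open where a probe lies in the first 66 columns, and dashed lines mark 1.5-fold. No member reaches the upper right corner, and 9 of 10 lie above 0 on array 2 with both fatty acids.

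By the rule that both arrays of a swap be at least 1.5-fold (0.585 in log2) from 0 on one side, 0 of 10 members were called with EPA. Of all genes 0.0311% were above and 0% below. With DHA 0 of 10 were called as well, against 0.0414% of genes on each side. At 1.3-fold Ech1 was above 0 with EPA, where 0.176% of genes were, and Ech1 and Eci2 with DHA, where 0.145% were. Below 0 there were 0 members at 1.3-fold, against 0.0829% of genes with EPA and 0.238% with DHA. In the Cy5 over Cy3 reading 0 members met the 1.5-fold rule, against 0.28% of genes lower with EPA and 0.0518% lower with DHA. At 1.3-fold there were also 0 members, against 0.653% lower and 0.0932% higher with EPA and 0.694% and 0.0207% with DHA.

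Taken array by array, the members stood apart on arrays 2 more than on arrays 1. On EPA array 2 Acadl, Hadha and Ech1 were at least 1.5-fold above 0, 3 of 10 members against 0.746% of genes. On DHA array 2 the same 3 and Decr1 were, 4 of 10 against 0.787%. On EPA array 1 there were 0 of 10 against 1.74%, and on DHA array 1 there was 1, Eci2, against 0.508%. Acads was past 1.5-fold below 0 on DHA array 1, where 9.52% of genes were. On the other arrays 0 members were, against 1.44% and 0.114% of genes in the EPA swap and 0.0725% on array 2 of DHA.

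The median over the members was 0.016 and 0.36 in the EPA swap and 0.24 and 0.45 in the DHA swap, where the medians over all genes lay between -0.02 and 0.0019. As swap means it was 0.23 with EPA and 0.37 with DHA, and the dye-following values had medians of -0.13 and -0.20. The medians of the 7 members outside the first columns were 0.24 with EPA and 0.38 with DHA. Acadvl, Ech1 and Decr1 were above 0 on all 4 arrays, 3 of 10 against 7% of genes, and 0 of 10 were below on all 4, against 7.59%. Above 0 on both arrays 2 were 9 of 10, against 37.1%, and on both arrays 1 3 of 10, against 25.9%. At least 1.5-fold above 0 on both arrays 2 were Acadl, Hadha and Ech1, against 0.373%. Acadm was below 0 on both arrays 1 and above on both arrays 2, as were 15.8% of genes. Array 2 was above array 1 with both fatty acids in 6 of 10 members, against 37.3% of genes. The probes with a shared value were also far above 0 on arrays 2, and no member probe is among them. Without these probes and the first columns the medians of the swap means of the remaining 7 members were 0.25 with EPA and 0.36 with DHA. A common origin of the high array 2 values of these probes and of the members was not tested.

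When the 2 swap means of each probe were tested jointly against 0 with limma, 0 of 12 member probes passed an adjusted p of 0.05, as did 0% of the 20500 probes. At an unadjusted p under 0.05 there were 6 member probes, those of Acadvl, Hadha and Ech1, both of Decr1 and 1 of Acadl, against 4.43% of all probes. Ech1 had a joint mean of 0.84 ± 0.07 (SE), an unadjusted p of 0.000829 and an adjusted p of 0.891 by limma, and lay above 0 on 4 of 4 arrays. The SE rests only on spreads between EPA and DHA means, and limma draws that of each probe towards a value fitted over all probes. A control RNA common to both means would be left out of the SE. Limma on the 4 arrays takes them as separate samples, more than the 2 RNA samples assumed here. Its unadjusted p-values thus treat repeats as replicates, though they were not smaller throughout. For Ech1 limma on the 4 arrays gave an unadjusted p of 0.00219, and 0.000151 with the array number as a block. This form of limma called 0 probes too, with 7 member probes under an unadjusted 0.05, against 4.84% of all, and with the array number as a block 6, against 8.38%. Without the first columns and the shared values the adjusted p of Ech1 by limma was 0.0561. Over all readings and normalizations tried with the joint test it ranged from 0.0561 to 0.891. Limma on the 4 arrays gave Ech1 an adjusted p of 0.899 without a block and 0.503 with it.

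EPA and DHA, which differ in chain length and number of double bonds, were given at the same dose, so their values can be set side by side. Arrays of the same dye orientation were compared. EPA minus DHA was -0.65 on arrays 1 and -0.19 on arrays 2 for Eci2, -0.15 and -0.33 for Decr1, and -0.02 and -0.25 for Ech1. For Hadhb it was -0.42 and -0.0082. These 4 members had EPA below DHA on both pairs of arrays, 4 of 10 against 30.6% of genes, a share near that of all genes. In the Cy5 over Cy3 reading the arrays 2 differences change sign, so these 4 would differ in direction between the pairs. In that reading EPA was below DHA on both pairs for Acadvl, Hadha and Hadh, 3 of 10 against 22.1% of genes, and above for Acadm and Acads, 2 of 10 against 19.9%. The dye-following difference was -0.23 for Eci2, 0.093 for Decr1, 0.12 for Ech1 and -0.20 for Hadhb.

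For Acadvl the sign of the difference turned between arrays 1 and 2, from -0.32 to 0.02, as it did for Hadha, from -0.16 to 0.14. The median over the members was -0.15 on arrays 1 and -0.02 on arrays 2. With 1 RNA sample for each fatty acid none of these differences has a replicate check, and no test was made. Acads had 2.08 on arrays 1 and -0.14 on arrays 2, and its DHA array 1 value is the -1.62 above. In the order of the swap means the ranges of neighbouring members overlapped in 9 of 9 cases with EPA and in 8 of 9 with DHA, the exception being Hadh above Acadm.

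**Figure D3:**
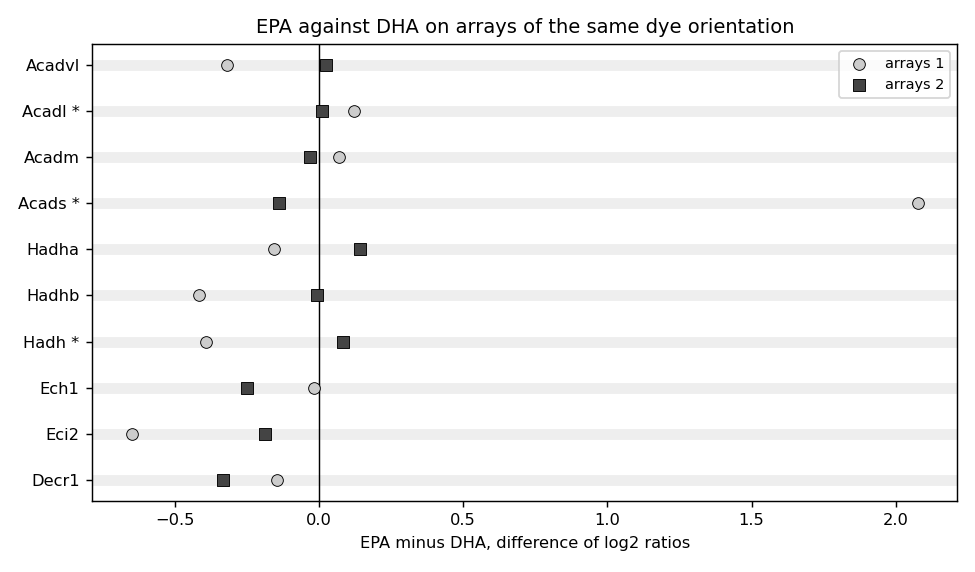
EPA minus DHA (difference of log2 ratios, x) for each member on arrays 1 (circles) and arrays 2 (squares). Asterisks mark genes with a probe in the first 66 columns. Ech1, Eci2, Decr1 and Hadhb lie below 0 on both, and Acads at 2.08 on arrays 1.

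**Figure D4:**
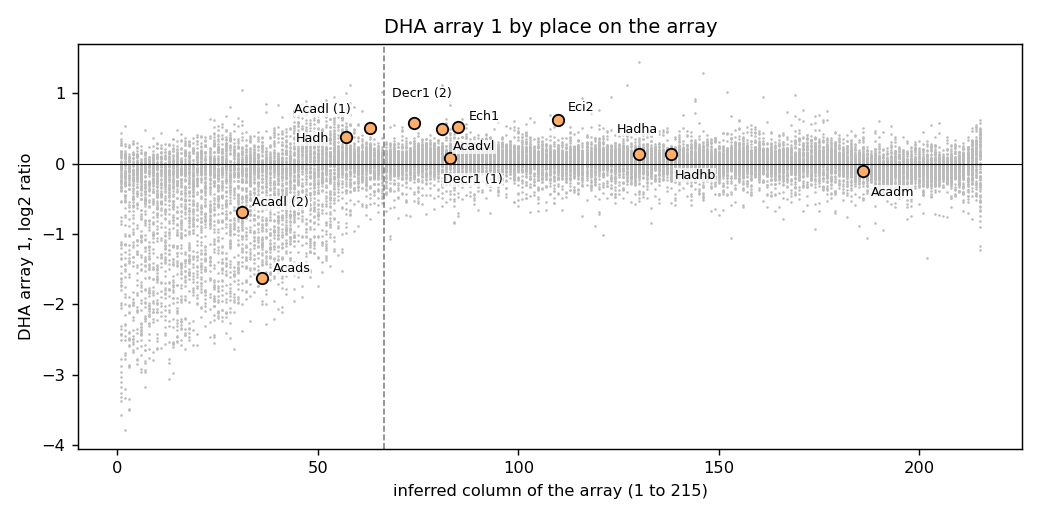
Log2 ratio on DHA array 1 (y) against the inferred column of the array (x) for all probes (grey) and the member probes (large points). The dashed line ends the first 66 columns. Acads (-1.62) and the second Acadl probe (-0.68) lie where low values are common.

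A mixed list of further matrix genes, not only of beta-oxidation, had medians near 0, with single genes on either side. Of 16 further genes of matrix beta-oxidation and related acyl-CoA breakdown 11 were measured, 0 met the 1.5-fold rule, and the medians were -0.0027 with EPA and 0.0021 with DHA. Acaa2, the thiolase that ends each round for shorter chains, was at 0.27 and 0.995 in the EPA swap and at -0.58 and 0.90 in the DHA swap, with its probe in the first columns. Echs1, the hydratase, was below 0 on all 4 arrays, from -1.09 to -0.08, with its probe there too. Hsd17b10 was above 0 on all 4, from 0.08 to 0.28. In all 1 of the 11 genes was above 0 on all 4, against 7% of genes, and 2 were below, against 7.59%.

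The electron transfer flavoprotein, which takes the electrons of the acyl-CoA dehydrogenases, had all 3 genes measured. Etfb was above 0 on all 4 arrays, at 0.22 on each EPA array and at 0.44 and 0.47 in the DHA swap. Etfdh, which passes the electrons on to ubiquinone, was above 0 on all 4 as well, with means of 0.06 ± 0.04 with EPA and 0.36 ± 0.10 with DHA, and these were also the list medians. Etfa was at -0.01 and 0.11 in the EPA swap and at 0.30 and 0.11 in the DHA swap. Above 0 on all 4 arrays were 2 of 3, against 7% of genes. By the 1.5-fold rule 0 of 3 were called, against 0.0311% of genes above 0 with EPA and 0.0414% on each side with DHA. At 1.3-fold Etfb was called above 0 with DHA, where 0.145% of genes were.

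Upstream of the matrix, 6 of 7 carnitine shuttle genes were measured and 1 (Cpt1b) met the 1.5-fold rule with each fatty acid, with list medians of 0.24 and 0.08. Of all genes 0.0311% met this rule above 0 with EPA and 0.0414% with DHA. Among 11 of 12 measured genes of uptake and activation 0 met the rule, with medians of 0.04 and 0.03. Peroxisomal beta-oxidation, which shortens very long chains in another organelle, had 13 of 18 genes measured and 0 called, with medians of -0.02 and -0.04. Above 0 on all 4 arrays were 0 of the 13, against 7% of genes. Only 5 of the 13 had no probe in the first columns, where low values on DHA array 1 are common. The medians of these 5 were -0.07 with EPA and -0.02 with DHA. The 10 of 12 measured PPAR regulators had 0 called and medians of 0.017 for EPA and 0.0029 for DHA. Of the 12 of 16 measured other PPAR targets, 1 (Hilpda) was called with each fatty acid, and the medians were 0.017 and 0.18. These calls and medians are in the working reading. The dye-following medians of the same lists lay between -0.073 and 0.015 over both fatty acids.

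**Figure D5:**
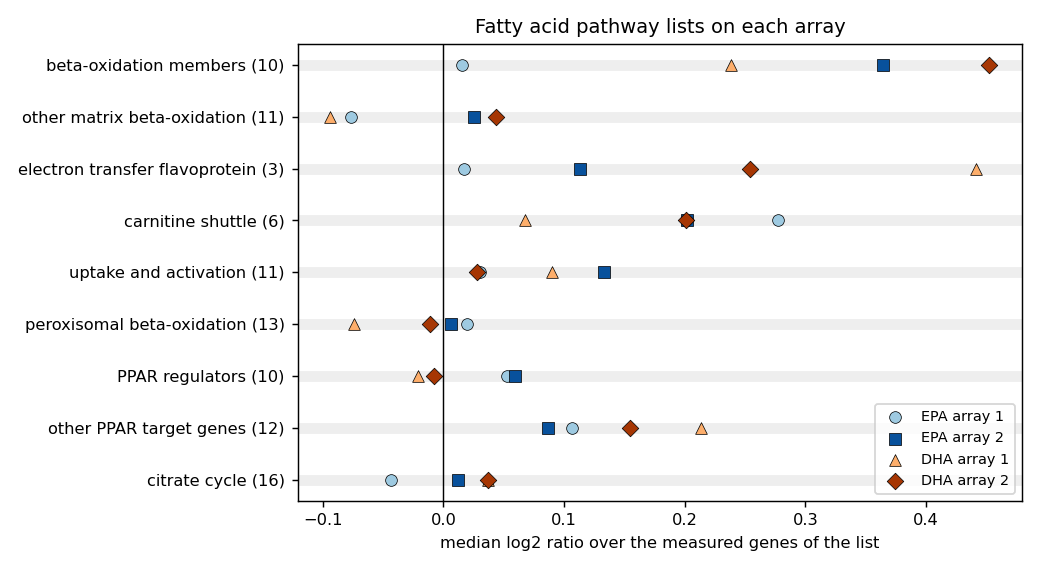
Median log2 ratio of each pathway list (rows, number of measured genes in brackets) on the 4 arrays. The 10 members lie at 0.016 and 0.24 on arrays 1 and at 0.36 and 0.45 on arrays 2, while the peroxisomal list stays between -0.07 and 0.02.

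Beside Hadha and Hadhb, the genes with the closest profiles over the 4 arrays were sought for 3 other members by Euclidean distance among 9652 genes. For Ech1 they were Cpt1a at a distance of 0.42, Plin2 at 0.77 and Hilpda at 0.81. For Decr1 they were Nqo1 at 0.25, Fbn1 at 0.28, with a probe in the first columns, and Ucp3 at 0.29. For Acadvl they were Suclg1 at 0.08, Psd2 at 0.10 and Avil at 0.16.

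Ventricular cultures hold other cells beside cardiomyocytes, and ratios carry no level, so the presence of each cell type could not be checked. In such bulk RNA, fewer cells of a type and less RNA per cell cannot be told apart. Of 10 cardiomyocyte markers 7 were measured, with medians from -0.02 to 0.13 over the arrays. Of 9 fibroblast markers 7 were measured, with medians from -0.43 to -0.15, Col1a2 and Fn1 among the probes with a shared value. Col3a1, Dcn and Lum were below 0 on all 4 arrays, 3 of 7 against 7.59% of genes. The other fibroblast markers varied in direction. With EPA and DHA the swap means were 0.42 ± 1.19 and 0.53 ± 0.96 for Col1a2. Those of Fn1 were 0.56 ± 1.32 and 0.64 ± 1.07. Both genes were below 0 on arrays 1 and above 0 on arrays 2, so these means give no direction. The swap means were 0.17 ± 0.33 and -0.49 ± 0.26 for Pdgfra. For Tcf21 they were -0.15 ± 0.08 and -0.24 ± 0.26. The probes of Dcn and Pdgfra lie in the first columns. Of 4 smooth muscle markers 2 were measured, with medians from -0.41 to 0.99, Tagln with a shared value. Endothelial markers (5 of 6) had medians from -0.05 to 0.15, and macrophage and leukocyte markers (7 of 7) from -0.18 to 0.10. Of the latter Lyz2 and Cd14 were below 0 on all 4 arrays, 2 of 7 against 7.59% of genes. The rest of these 7 lay nearer to 0 or varied in direction. For EPA and DHA the swap means of Cd68 were 0.02 ± 0.26 and 0.06 ± 0.11. Those of Mrc1 were 0.05 ± 0.12 and 0.08 ± 0.02, and those of Csf1r -0.19 ± 0.33 and 0.03 ± 0.14. Ptprc had -0.21 ± 0.03 and 0.05 ± 0.07, and Cd74 -0.01 ± 0.01 and 0.01 ± 0.09. Lyz2, lysozyme of macrophages, had means of -0.74 ± 0.45 with EPA and -0.77 ± 0.36 with DHA, and its EPA mean was the lowest of all 9653 genes. For red cells 1 of 3 was measured, Alas2, from -0.05 to 0.15. The part of cell composition in the members' values was not tested.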

How the data were processed

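The authors deposited 1 value per feature and array for 22575 features, per the labels an assessment of expression ratios on 2-colour Agilent rat arrays. Of these, 2075 were empty and 20500 had a value on all 4 arrays. The deposited values are read as log2 ratios. How they were scanned, background-corrected and dye-normalized, their log base and their direction are not stated in the labels or headers. The number of arrays limits the precision, and spot intensities were not used here.

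Array medians were set to 0. Probes were named from GEO's platform annotation and RefSeq gene IDs (GRCr8 table): 12750 measured probes had 1 symbol, 5 several (left unnamed), and 7745 were unlisted and unnamed here. Gene IDs of 12720 probes were found. Probes of a gene were averaged. The p-values measure only the spread between these samples, which limma draws for each probe towards a value fitted over all probes.

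A member counts as called at 1.5-fold on both arrays of a swap, on one side. Limma 3.58.1 (lmFit, eBayes) in R 4.3.3 tested the 2 swap means of all 20500 probes against 0, with Benjamini-Hochberg adjustment over all. The code was tested on simulated data. Tables were handled with pandas 2.3.3 in Python 3.11.15. Alternatives were the Cy5 over Cy3 reading, equal spread, quantile normalization, another centring, removal of a local median (15 by 15 features), exclusion of the first 66 columns and shared values, a 1.3-fold threshold, single arrays, and limma on 4 arrays with and without a block. Named are all members, list genes a statement turns on or past the rule, and the 3 nearest genes of Ech1, Decr1, Acadvl, Hadha and Hadhb. Members and lists were chosen with earlier results of these data known.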

Additional observations from a re-analysis of the deposited data

How the results depend on the processing

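The count of called members was 0 with EPA and 0 with DHA, and among alternatives of normalization only quantile normalization moved it, to 1 (Ech1) with DHA. At 1.3-fold it was 1 with EPA and 2 with DHA. From single arrays it ranged from 0 to 3 with EPA and from 2 to 4 with DHA, the highest counts coming from arrays 2 alone; array 1 of DHA gave Eci2 above and Acads below 0. The members' median ranged over the normalizations from 0.20 to 0.25 with EPA and from 0.32 to 0.41 with DHA, and from single arrays from 0.016 to 0.36 and from 0.24 to 0.45. In the Cy5 over Cy3 reading the medians were -0.13 and -0.20, and 7 of 10 joint means changed sign: Acadl to -0.42, Acadm to -0.088, Hadha to -0.32, Hadhb to -0.29, Hadh to -0.015, Ech1 to -0.32 and Decr1 to -0.17. No joint mean of a member changed sign under the other normalizations. The joint test called 0 member probes by limma in each alternative. Under an unadjusted p of 0.05 by limma lay 8 of 12 with equal spread (5.22% of all probes), 9 after quantile normalization (7.22%), 6 with another centring (4.68%) and 8 with a local median removed (9.02%), all above 0. Without the first columns and shared values there were 7 of 8, above 0, against 12.2% of all 14186 probes, of which 2 were called, neither a member. In the Cy5 over Cy3 reading there were 5 of 12, all below 0, against 12.9%. Over all genes the 1.5-fold rule called 3 above and 0 below 0 with EPA, and 4 on each side with DHA. After quantile normalization these were 4 and 19 with EPA and 5 and 10 with DHA. Under the Cy5 over Cy3 reading they were 0 and 27, and 0 and 5. Equal spread gave 4 and 1 with EPA. The replicate number marks the dye orientation, per the labels, and the difference between arrays 1 and 2 correlated between EPA and DHA at r = 0.31 over all probes and 0.64 outside the first columns. With it as a replicate block on the 4 arrays, limma called 0 member probes, with 6 under an unadjusted p of 0.05 against 8.38% of all probes, and it changed no call.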

Other observations

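The citrate cycle, which burns the acetyl-CoA made by beta-oxidation, had 16 of 21 listed genes measured and 0 called by the 1.5-fold rule with either fatty acid. The median of its swap means was -0.03 for EPA and -0.00051 for DHA, and single-array medians lay between -0.04 and 0.04. Suclg1, a subunit of succinyl-CoA ligase, was above 0 on all 4 arrays, at 0.24 and 0.25 with EPA and at 0.52 and 0.29 with DHA. Pdha1, a subunit of pyruvate dehydrogenase and thus on the entry route of carbohydrate, was below 0 on all 4, from -0.18 to -0.0097. Each was the only 1 of the 16 genes on its side on all 4 arrays, against 7% of genes above and 7.59% below. These are values of 1 RNA sample for each fatty acid, with no test.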
